A study of Mus musculus with 6 samples.

Results

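The Hox genes are the homeobox genes of the HoxA, HoxB, HoxC and HoxD clusters, and 37 of them were measured among 22800 gene symbols in cultured murine oviductal epithelial (MOE) cells. They were taken by symbol (Hox, a cluster letter and a number), with 11 genes in HoxA, 9 in HoxB, 9 in HoxC and 8 in HoxD. RNA was sequenced from MOE HIGH cells (passages 90, 103 and 113) and from MOE LOW cells (passages 8, 9 and 10). The authors looked for pathways with a possible part in tumor formation by MOE HIGH cells. These cells grew faster than MOE LOW cells and, unlike them, formed subcutaneous tumors in nude mice. Passage number, growth and transformation thus differ together between the groups. Both groups came from 1 line, pooled from several oviducts of 8-week-old female outbred CD1 mice and kept in serial passage. Total RNA depleted of ribosomal RNA was made into stranded libraries. Each passage gave 1 library, and p-values therefore measure only how passages of this line vary.

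Hox genes encode homeodomain transcription factors that lie in ordered clusters, and the order along a cluster follows the order in which the genes are used along the body axis, low numbers toward the head and high numbers toward the tail. Genes with the same number in different clusters are paralogs. In the Müllerian duct of the mouse, neighbouring genes of the HoxA cluster mark successive segments, with Hoxa9 in the oviduct, Hoxa10 in the uterus, Hoxa11 in the lower uterus and cervix and Hoxa13 in the upper vagina. Hox proteins bind DNA with TALE homeodomain partners (Pbx, Meis and Pknox), retinoic acid switches on low-numbered genes in embryos, and Polycomb and Trithorax proteins maintain the silent and the active state.

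The values were FPKM (fragments scaled to transcript length and to the mapped fragments of the library), a level per length that can be set side by side between genes. The test was limma's, run on log2(FPKM + 1) for 11621 genes whose mean over the libraries reached 0.5 FPKM, and a gene was called at a Benjamini-Hochberg adjusted p under 0.05. A fold change on this scale understates the change of low genes, and a value of 0 says only that the gene was listed at 0. Values of single libraries are given in the order of passage. Summed FPKM was 597486 to 770709 in the MOE HIGH libraries and 625095 to 684209 in the MOE LOW libraries, and the number of reads is unknown.

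Markers of oviductal epithelium were present in part. The Müllerian factor gene Pax8 averaged 45.0 ± 3.94 FPKM in MOE HIGH and 49.2 ± 5.04 FPKM in MOE LOW (SD, n = 3 passages each), and the oviductal glycoprotein gene Ovgp1 stood at 0.887 ± 0.162 FPKM in MOE HIGH and 0.875 ± 0.187 FPKM in MOE LOW. The epithelial genes Epcam and Cdh1 were at or below 0.0821 FPKM in all 6 libraries, and Muc1 was at or below 0.433 FPKM. The keratin genes of the list differed widely in level. Krt18 and Krt19 lay between 552 and 2371 FPKM, Krt8 between 22.6 and 55.2 FPKM and Krt7 between 0.317 and 2.79 FPKM. Over all genes tested, 24.3% were called higher and 32.1% lower in MOE HIGH, 56.4% in all. Of the lists of cell type markers, 3 of 10 tested secretory genes were higher and 3 lower in MOE HIGH, 2 of 4 ciliated genes were higher and 1 lower (1 higher without passage 8, with equal totals or without a minimum), 4 of 7 mesothelial genes were higher and 2 lower (1 lower without passage 8 or without a minimum), 3 of 5 leukocyte genes were higher and 1 lower, and 1 of 1 endothelial gene was lower. The lists that moved most were those of smooth muscle, with 8 of 8 tested genes lower and a summed level of 70.9 to 109 FPKM in MOE HIGH against 8366 to 12172 FPKM in MOE LOW, and of fibroblasts, with 7 of 10 lower and 1 higher (2 higher without passage 113). Acta2, Tagln and Myl9 of the smooth muscle list were at 0.356 to 9.83 FPKM in MOE HIGH and at 534 to 5216 FPKM in MOE LOW. Myh11 and Myocd of the same list, too low for a test, were at or below 0.591 FPKM in every library. Some members of the cell type lists passed the minimum only through the group in which they were high and had to differ. Postn, Des and Kdr, the 1 endothelial gene tested, passed through MOE LOW. Foxj1 of the ciliated, Bnc1 of the mesothelial and Mrc1 and Itgb2 of the leukocyte list passed through MOE HIGH. The counts of these lists therefore support nothing further. Ptprc and Cd3e of leukocytes were at or below 0.133 FPKM in every library. Some other genes of the leukocyte list were not near 0 in MOE HIGH. Itgb2 was at 46.3 FPKM in MOE HIGH and 0.466 FPKM in MOE LOW. Mrc1 was at 11.7 FPKM in MOE HIGH and 0.0956 FPKM in MOE LOW. Csf1r was at 1.61 FPKM in MOE HIGH and 0.642 FPKM in MOE LOW. Cd14, called lower, was at 32.4 FPKM in MOE HIGH and 78.6 FPKM in MOE LOW. The part of these markers in the Hox results was not tested.

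The promoters of 4 genes are printed because the results turn on these genes. They belong to Hoxa10, the Hox gene with the largest rise, to Hoxa11, its next neighbour, which was listed at 0 throughout, to Hoxc4, the gene with the largest fall, and to Hoxd9, which rose most in its cluster, and they were chosen with these values known. Each window holds 250 bases before and 50 bases after an annotated start in RefSeq GRCm38.p6, 5′ to 3′ on the strand of the gene, with every CpG dinucleotide, the site of DNA methylation, in capitals. The Hoxa10 window (chr6:52234890-52235189, minus strand, at a start inside the annotated gene) has 21 CpG, the Hoxa11 window (chr6:52245761-52246060, minus strand) 15, the Hoxc4 window (chr15:103034145-103034444, plus strand, at a start inside the annotated gene) 9 and the Hoxd9 window (chr2:74697513-74697812, plus strand) 20.
Hoxa10: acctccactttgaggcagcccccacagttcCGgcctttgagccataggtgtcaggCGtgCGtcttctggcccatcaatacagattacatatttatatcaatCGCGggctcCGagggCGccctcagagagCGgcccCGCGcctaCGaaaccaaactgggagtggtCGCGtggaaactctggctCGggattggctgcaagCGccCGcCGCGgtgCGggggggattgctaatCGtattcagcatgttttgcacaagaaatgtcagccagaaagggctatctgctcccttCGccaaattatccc
Hoxa11: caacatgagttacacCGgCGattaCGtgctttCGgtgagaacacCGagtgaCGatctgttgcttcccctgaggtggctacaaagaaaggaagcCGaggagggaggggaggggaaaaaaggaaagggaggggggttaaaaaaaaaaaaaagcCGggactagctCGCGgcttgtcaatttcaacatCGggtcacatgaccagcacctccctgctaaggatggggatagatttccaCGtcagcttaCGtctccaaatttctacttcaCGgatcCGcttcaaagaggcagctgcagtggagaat
Hoxc4: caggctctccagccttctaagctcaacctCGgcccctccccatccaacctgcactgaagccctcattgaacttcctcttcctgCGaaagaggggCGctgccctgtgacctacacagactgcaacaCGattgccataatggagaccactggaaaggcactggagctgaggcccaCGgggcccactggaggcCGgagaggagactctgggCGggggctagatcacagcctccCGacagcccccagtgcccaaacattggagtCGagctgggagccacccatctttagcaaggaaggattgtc
Hoxd9: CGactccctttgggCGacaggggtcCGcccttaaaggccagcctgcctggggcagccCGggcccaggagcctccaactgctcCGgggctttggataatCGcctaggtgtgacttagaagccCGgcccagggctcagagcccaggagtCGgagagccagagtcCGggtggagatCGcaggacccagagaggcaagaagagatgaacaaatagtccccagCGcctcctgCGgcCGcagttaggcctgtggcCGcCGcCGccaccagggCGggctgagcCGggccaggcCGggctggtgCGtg

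RefSeq windows were matched for 20 of the 37 Hox genes, 22 windows in all. They held a median of 17.5 CpG (range 4 to 45), against 7 over 32851 mouse promoters of the same length. The CCAAT box (CCAAT, both strands) was found in 14 of the 22 Hox windows, 63.6%, and in 37.4% of all windows. The TATA box (TATAAA, both strands) was found in 3, 13.6%, as in 13.6% of all windows, and matches to the 2 motifs overlapped in 0 Hox windows. Of the 4 printed windows, those of Hoxa10 and Hoxc4 hold CCAAT and that of Hoxa10 also holds TATAAA. The other Hoxa10 window, at the 5′ end of the annotated gene (chr6:52240805-52241104) and not printed, has 12 CpG and neither motif. These matches describe letters and not use of a site, and no methylation was measured.

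MOE HIGH cells had most of their Hox RNA from the HoxB cluster, as MOE LOW cells did, had HoxC at or next to 0, and had more RNA from HoxD and from the high-numbered part of HoxA. All 37 Hox genes together summed to 116 ± 3.86 FPKM in MOE HIGH and 155 ± 4.48 FPKM in MOE LOW, and the groups did not overlap. HoxB supplied 55.5% ± 4.15 of that sum in MOE HIGH and 59.1% ± 2.81 in MOE LOW, HoxA 23.4% ± 2.79 in MOE HIGH and 17.1% ± 1.48 in MOE LOW. HoxD supplied 21.1% ± 1.43 in MOE HIGH and 6.07% ± 0.576 in MOE LOW. HoxC supplied 0.0154% ± 0.0161 in MOE HIGH and 17.7% ± 1.81 in MOE LOW.

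Of the 37 genes, 22 reached the minimum mean and were tested, and 7 were higher, 10 were lower and 5 were not called in MOE HIGH. Of the 15 genes not tested, 9 were listed at 0 in all 6 libraries and 6 were low. Over all genes tested, 24.3% were higher and 32.1% were lower, 56.4% in all, against 17 of 22 Hox genes (77.3%). The median log2 fold change was -0.25 over the tested Hox genes and -0.05 over all genes, and the median size of change regardless of direction was 1.08 for Hox genes and 0.44 for all genes. These counts describe the genes and support nothing further, since 6 of the 22 (Hoxa6, Hoxa10, Hoxc4, Hoxc5, Hoxc6 and Hoxc8) passed the minimum only through the group in which they were high and had to differ. MOE HIGH and MOE LOW values were separate for 18 of the 22, with MOE HIGH above in 7 and below in 11, where 28.5% and 35.5% of all tested genes, 64.0% together, did not overlap. Tested against a 2-fold change, Hoxa10 and Hoxd9 were higher and Hoxc4, Hoxc5 and Hoxc6 were lower, where 2.61% and 7.80% of all genes passed in these directions.

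**Figure D1:**
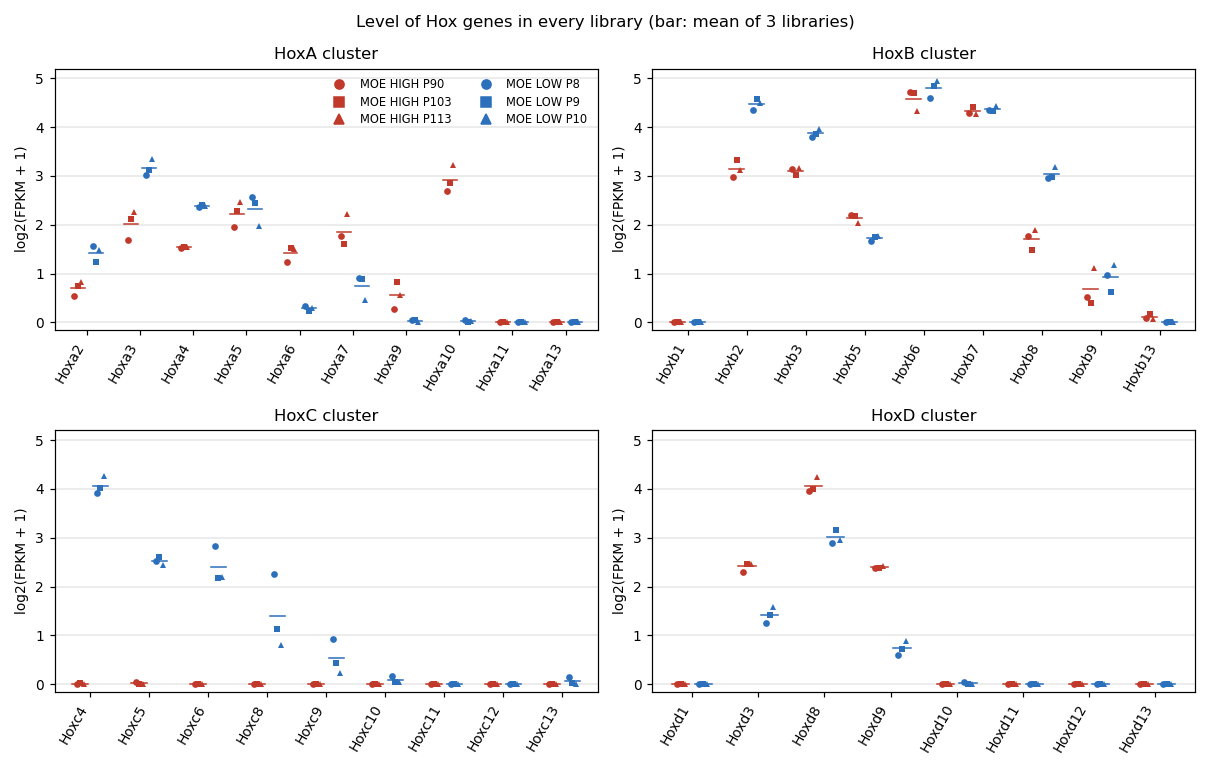
Level of 36 Hox genes as log2(FPKM + 1) in every library, by cluster and in order of gene number, with MOE HIGH in red left of MOE LOW in blue and a bar at the mean of 3 libraries. HoxC points of MOE HIGH lie at or next to 0, HoxD points of MOE HIGH lie above those of MOE LOW for Hoxd3, Hoxd8 and Hoxd9, and in HoxA the order of the groups turns between Hoxa4 and Hoxa6.

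HoxA lies on the minus strand of chromosome 6 of mm10, with Hoxa2 to Hoxa13 between 52162417 and 52260880, and its lower and higher genes lay on opposite sides of Hoxa5. Hoxa2, Hoxa3 and Hoxa4 were lower in MOE HIGH, Hoxa6, Hoxa7 and Hoxa10 were higher, and Hoxa5 was not called. Together Hoxa2 to Hoxa5 summed to 9.40 ± 1.79 FPKM in MOE HIGH and 18.0 ± 0.142 FPKM in MOE LOW, while Hoxa6 to Hoxa10 summed to 11.5 ± 2.46 FPKM in MOE HIGH and 0.965 ± 0.287 FPKM in MOE LOW. Hoxa10 alone gave 6.67 FPKM of the MOE HIGH sum. The cut between these stretches follows the calls, so the sums repeat them and support nothing further. On chromosome 6 as a whole 19.6% of tested genes were higher and 39.5% were lower.

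Hoxa10, which in mice is needed for the identity of the uterus, was at 5.45, 6.28 and 8.28 FPKM in MOE HIGH (passages 90, 103 and 113), against 0.0285, 0 and 0.0265 FPKM in MOE LOW (passages 8, 9 and 10). Every MOE HIGH library was far above every MOE LOW library, where the gene was at or next to 0. The log2 fold change of Hoxa10 was the largest rise among the Hox genes (2.90, standard error 0.15, adjusted p = 2.63e-06). With 6.67 ± 1.46 FPKM it stood at rank 6 of 37 Hox genes in MOE HIGH and at rank 26 in MOE LOW.

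Hoxa6 was at 1.35, 1.87 and 1.84 FPKM in MOE HIGH, against 0.260, 0.178 and 0.234 FPKM in MOE LOW. The mean was 7.52 times higher in MOE HIGH, without overlap (log2 fold change 1.13, standard error 0.12, adjusted p = 0.000122). Hoxa7, a trunk gene like Hoxa6 in the embryo, was at 2.39, 2.03 and 3.63 FPKM in MOE HIGH, against 0.869, 0.858 and 0.381 FPKM in MOE LOW. Its mean was 3.82 times higher (log2 fold change 1.10, standard error 0.19, adjusted p = 0.0018). Both genes came out close on log2(FPKM + 1), which understates the change of low genes, while by ratio of means Hoxa6 rose more. Between them lies Mira, a noncoding RNA gene of the cluster that was named after its values were seen, at 4.68, 3.59 and 5.46 FPKM in MOE HIGH, against 2.18, 1.27 and 1.03 FPKM in MOE LOW (log2 fold change 1.18, adjusted p = 0.00154).

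Hoxa9, the segment gene of the oviduct, stayed under the minimum mean. It was at 0.214, 0.782 and 0.470 FPKM in MOE HIGH, against 0.0321, 0.0293 and 0 FPKM in MOE LOW. MOE HIGH lay above MOE LOW in every library, and in a fit without a minimum its log2 fold change was 0.53 (adjusted p = 0.0603), which did not pass. Hoxa11 and Hoxa13, which mark the segments below the uterine horn, were listed at 0 in all 6 libraries.

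At the low-numbered end, Hoxa3, needed for the thymus and parathyroid, was at 2.23, 3.36 and 3.77 FPKM in MOE HIGH, against 7.08, 7.77 and 9.13 FPKM in MOE LOW. All MOE HIGH values were below all MOE LOW values (log2 fold change -1.14, standard error 0.17, adjusted p = 0.000805). Hoxa4, a gene of vertebral identity, was at 1.89, 1.92 and 1.90 FPKM in MOE HIGH, against 4.14, 4.27 and 4.24 FPKM in MOE LOW (log2 fold change -0.84, standard error 0.10, adjusted p = 0.000203). The passages of each group differed little for Hoxa4, with an SD of 0.0133 FPKM in MOE HIGH and 0.0673 FPKM in MOE LOW. Hoxa2, which patterns the hindbrain and the face, was at 0.455, 0.670 and 0.778 FPKM in MOE HIGH, against 1.95, 1.37 and 1.79 FPKM in MOE LOW (log2 fold change -0.73, standard error 0.13, adjusted p = 0.00223), and this call was lost with quantile normalization (log2 fold change -0.25, adjusted p = 0.117).

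Hoxa5, which acts in the lung, was at 2.86, 3.86 and 4.50 FPKM in MOE HIGH, against 4.92, 4.45 and 2.95 FPKM in MOE LOW. The groups overlapped, and the 95% interval of the log2 fold change reached from -0.55 to 0.35 around -0.10 (adjusted p = 0.674). In RefSeq the span of Hoxa3 covers Hoxa4, Hoxa5 and Hoxa6 on the same strand, so reads of long Hoxa3 transcripts could be shared with them, and their levels are uncertain to that extent.

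**Figure D2:**
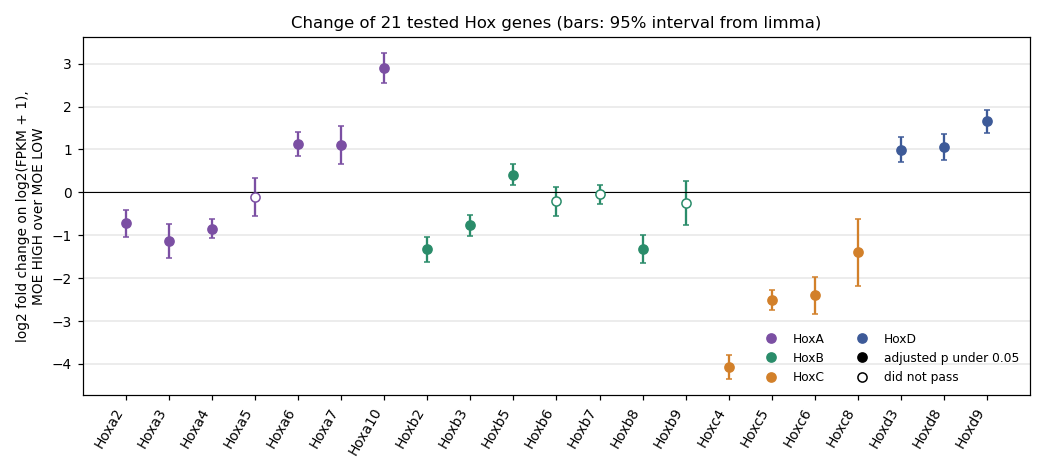
Log2 fold change (MOE HIGH over MOE LOW, on log2(FPKM + 1)) of 21 tested Hox genes, with 95% intervals from limma, filled where the adjusted p was under 0.05 and coloured by cluster. The points run from -4.06 for Hoxc4 to 2.90 for Hoxa10, the 4 tested HoxC genes lie below 0 and the 3 tested HoxD genes above 0. The 4 HoxC genes passed the minimum only through MOE LOW, which fixed their side.

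HoxB lies on chromosome 11 from 96194316 to 96368254 and was the cluster with the highest level in both groups, at 64.2 ± 3.79 FPKM in MOE HIGH and 91.9 ± 6.80 FPKM in MOE LOW. Of its 7 tested genes Hoxb2, Hoxb3 and Hoxb8 were lower in MOE HIGH, Hoxb5 was higher, and Hoxb6, Hoxb7 and Hoxb9 were not called. On chromosome 11 as a whole 21.5% of tested genes were higher and 31.0% were lower.

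Hoxb6, a gene of the trunk mesoderm in the embryo, was the highest Hox gene of both groups. It was at 25.3, 25.1 and 19.1 FPKM in MOE HIGH, against 23.1, 27.6 and 29.8 FPKM in MOE LOW. The groups overlapped (log2 fold change -0.21, 95% interval -0.55 to 0.13, adjusted p = 0.26). Hoxb7, whose promoter drives transgenes in the ureteric bud, was at 18.7, 20.4 and 18.2 FPKM in MOE HIGH, against 19.4, 19.0 and 20.7 FPKM in MOE LOW, again with overlap. The 95% interval of its log2 fold change reached from -0.27 to 0.18 around -0.04 (adjusted p = 0.723).

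Hoxb8, the gene next to Hoxb7, differed by contrast. It was at 2.40, 1.79 and 2.72 FPKM in MOE HIGH, against 6.78, 6.88 and 8.04 FPKM in MOE LOW. All MOE HIGH values were below all MOE LOW values (log2 fold change -1.32, standard error 0.14, adjusted p = 0.00013), and the MOE HIGH mean was 0.319 times the MOE LOW mean. Hoxb9, on its other side, was at 0.434, 0.326 and 1.17 FPKM in MOE HIGH, against 0.962, 0.532 and 1.27 FPKM in MOE LOW (log2 fold change -0.24, adjusted p = 0.38). The groups overlapped, and passage 113 set much of the MOE HIGH mean, which was 0.644 FPKM with it and 0.380 FPKM without it.

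Hoxb2, which acts in the hindbrain, was the HoxB gene with the largest difference in FPKM, at 6.89, 9.00 and 7.72 FPKM in MOE HIGH, against 19.4, 22.8 and 21.4 FPKM in MOE LOW (log2 fold change -1.33, standard error 0.12, adjusted p = 6.73e-05). It was at rank 4 among Hox genes in MOE HIGH and at rank 2 in MOE LOW. Hoxb3, its neighbour, was at 7.79, 7.07 and 7.92 FPKM in MOE HIGH, against 12.9, 13.5 and 14.6 FPKM in MOE LOW (log2 fold change -0.77, standard error 0.10, adjusted p = 0.000466). Neither gene had overlapping groups. Hoxb5, a gene of the enteric neural crest, was at 3.59, 3.56 and 3.12 FPKM in MOE HIGH, against 2.17, 2.36 and 2.43 FPKM in MOE LOW. It was 1.48 times higher in MOE HIGH without overlap (log2 fold change 0.41, standard error 0.11, adjusted p = 0.0115), which did not reach 0.01.

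At the ends of the cluster, Hoxb1 was listed at 0 in all 6 libraries. Hoxb13, which lies apart from the rest and acts in the prostate and the tail, was at 0.0597, 0.129 and 0.0472 FPKM in MOE HIGH and listed at 0 in the 3 MOE LOW libraries, below the minimum for a test. The miRNA gene Mir10a lies within the span of Hoxb3 and was at 1.11, 1.47 and 2.82 FPKM in MOE HIGH, against 2.33, 2.98 and 3.52 FPKM in MOE LOW (log2 fold change -0.53, adjusted p = 0.082). It was called lower without passage 113 and with a replicate block, it was the 1 tested gene of the 9 noncoding RNA and miRNA genes of the clusters on the list measured here, and a library of total RNA does not measure the mature miRNA. Hoxb4 and Hoxd4, which lie within the annotated spans of Hoxb3 and Hoxd3, were not analysed here. The sums of HoxB, HoxD and all Hox genes lack them.

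HoxC lies on chromosome 15 from 102921131 to 103036856, and its RNA was found in MOE LOW alone apart from 2 traces. The 9 genes together summed to 0.0357, 0.0166 and 0 FPKM in MOE HIGH, against 30.0, 25.5 and 27.1 FPKM in MOE LOW. The 4 tested genes were lower, with a median log2 fold change of -2.46, and 5 others of the cluster were too low for a test. All 4 passed the minimum only through MOE LOW, so their direction was fixed and the count supports nothing further. On chromosome 15 as a whole 21.1% of tested genes were higher and 33.9% were lower, with a median log2 fold change of -0.11. In RNA from a whole culture, fewer cells of a type and less RNA per cell cannot be told apart.

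Hoxc4, a gene of neck and upper trunk identity, was listed at 0, 0.0166 and 0 FPKM in MOE HIGH, against 14.1, 15.3 and 18.1 FPKM in MOE LOW. It was at rank 22 of the Hox genes in MOE HIGH and at rank 4 in MOE LOW. No other Hox gene differed as much in either direction (log2 fold change -4.06, standard error 0.12, adjusted p = 2.18e-07). Hoxc5 was at 0.0357, 0 and 0 FPKM in MOE HIGH, against 4.80, 5.09 and 4.46 FPKM in MOE LOW (log2 fold change -2.51, standard error 0.10, adjusted p = 8.97e-07). Its MOE LOW passages lay close together, with an SD of 0.317 FPKM.

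Hoxc6, a gene of the thoracic region, was listed at 0 in the 3 MOE HIGH libraries and was at 6.14, 3.50 and 3.56 FPKM in MOE LOW (log2 fold change -2.40, standard error 0.18, adjusted p = 2.3e-05). Hoxc8, which patterns thoracic vertebrae and motor neurons, was likewise listed at 0 in the 3 MOE HIGH libraries and was at 3.82, 1.18 and 0.742 FPKM in MOE LOW. Passage 8 stood above the other MOE LOW passages for both genes. Hoxc8 was called lower (log2 fold change -1.40, standard error 0.33, adjusted p = 0.00821), and its MOE LOW mean was 1.91 FPKM with passage 8 and 0.961 FPKM without it, where the gene fell below the minimum for a test. In a fit without a minimum Hoxc8 was not called (adjusted p = 0.0687).

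Further along the cluster the MOE LOW values were low. Hoxc9, Hoxc10 and Hoxc13 were listed at 0 in every MOE HIGH library. In MOE LOW, Hoxc9 was at 0.895, 0.346 and 0.175 FPKM, Hoxc10 at 0.121, 0.0267 and 0.0273 FPKM and Hoxc13 at 0.114, 0.0252 and 0 FPKM. In a fit without a minimum none of the 3 passed (adjusted p = 0.118, 0.228 and 0.414 in that order). Passage 8 was the highest for each, and without it the MOE LOW means of Hoxc9, Hoxc10 and Hoxc13 were 0.260, 0.0270 and 0.0126 FPKM in place of 0.472, 0.0585 and 0.0463 FPKM. Hoxc11 and Hoxc12 were listed at 0 in all 6 libraries. The muscle genes Actg2 (104, 15.8 and 10.6 FPKM in MOE LOW) and Des (117, 33.9 and 13.2 FPKM) and the collagen gene Col3a1 (69.3, 24.1 and 24.0 FPKM) were also highest in passage 8. Their part in the values of Hoxc8 to Hoxc13 was not tested.

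Most genes around the cluster were not called. Of the 10 nearest tested genes around HoxC, 5 on each side and within 397 kb, 0 were higher and 2 were lower at an adjusted p under 0.05, and their log2 fold changes reached from -1.46 to 0.26. Over all genes tested 24.3% were higher and 32.1% lower. At an unadjusted p under 0.05 the same fit gave 3 lower and 0 higher. Calcoco1, the nearest beyond Hoxc13 at 199 kb, was at 4.39, 4.74 and 4.20 FPKM in MOE HIGH, against 13.9, 12.9 and 15.1 FPKM in MOE LOW (log2 fold change -1.46, adjusted p = 1.86e-05). Smug1, a DNA repair gene and the nearest beyond Hoxc4 at 116 kb, was at 3.73, 3.20 and 4.64 FPKM in MOE HIGH, against 3.70, 4.72 and 4.59 FPKM in MOE LOW (log2 fold change -0.14, adjusted p = 0.443). Copz1 was the other gene called lower (log2 fold change -0.49, adjusted p = 0.0108), and Cbx5, Hnrnpa1 and Atp5g2 were not called. Inside the cluster Hotair, Mir196a-2 and Mir615 were listed at 0 in all 6 libraries.

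**Figure D3:**
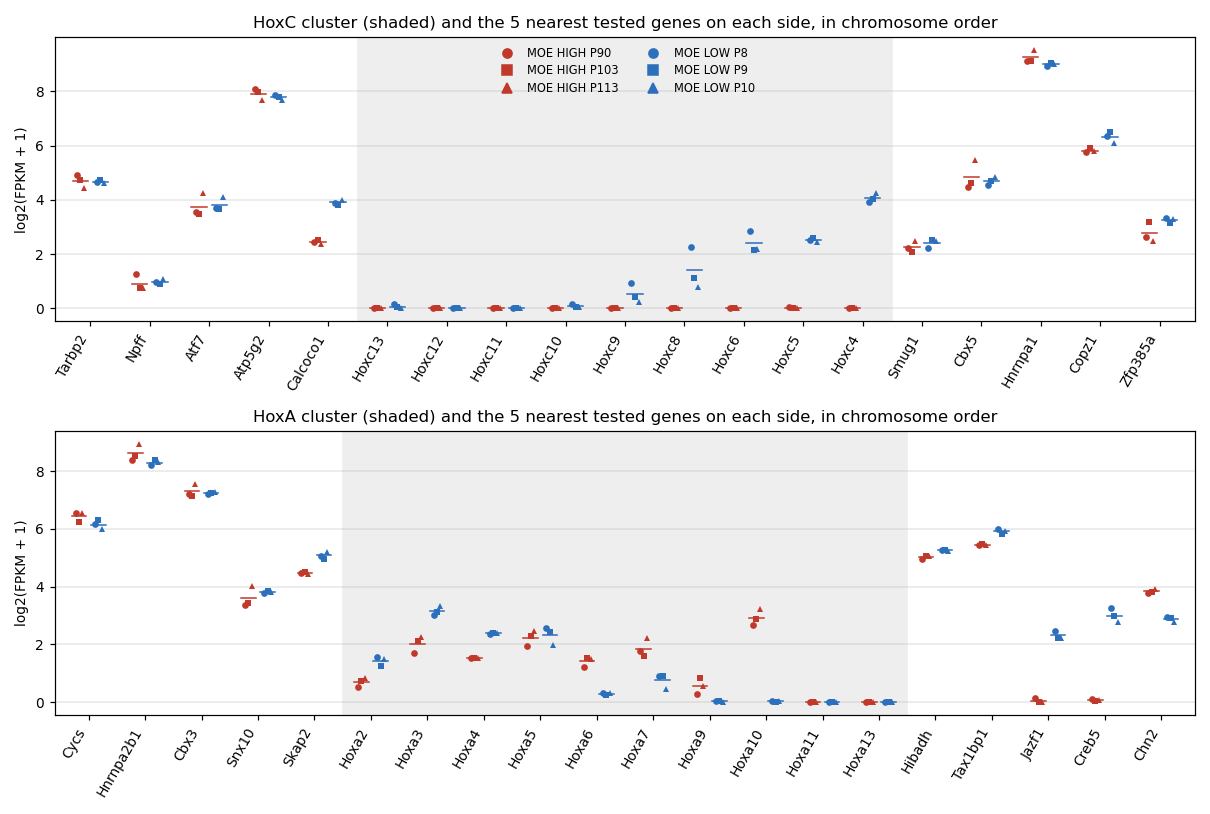
Level as log2(FPKM + 1) in every library along HoxC (top) and HoxA (bottom), with genes of the cluster on grey and the 5 nearest tested genes on each side, MOE HIGH in red left of MOE LOW in blue, bars at group means and genes in chromosome order without scale. In HoxC only genes inside the grey area go to 0 in MOE HIGH while of the 10 flanking genes Calcoco1 (log2 fold change -1.46) and Copz1 (-0.49) are called lower and 8, such as Smug1 (-0.14), are not called, and in HoxA the flanking genes Jazf1 and Creb5 are also next to 0 in MOE HIGH. Of all genes tested 24.3% were called higher and 32.1% lower.

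Around HoxA 1 of the 10 neighbours was higher and 4 were lower. This count and that of HoxB stand beside 24.3% higher and 32.1% lower over all genes tested. Jazf1 and Creb5 here, and Skap1 around HoxB, passed the minimum only through MOE LOW and had to differ. The 2 counts therefore support nothing further. Jazf1 was at 0.105, 0 and 0 FPKM in MOE HIGH, against 4.50, 3.69 and 3.72 FPKM in MOE LOW, and Creb5 at 0.0705, 0.0322 and 0.0482 FPKM in MOE HIGH, against 8.50, 6.90 and 5.81 FPKM in MOE LOW. Both lie beyond Hoxa13, whereas Chn2, farther out on the same side, was higher (log2 fold change 0.97, adjusted p = 0.000151). Around HoxB 2 of 10 were higher, Ttll6 (log2 fold change 1.47) and the RNA-binding protein gene Igf2bp1 (log2 fold change 2.64), and 2 were lower, Skap1 (log2 fold change -1.82) and Nfe2l1 (log2 fold change -1.21). The even-skipped homologs Evx1 and Evx2, which sit beside Hoxa13 and Hoxd13, were listed at 0 in all 6 libraries, as were Hoxa11as, Mir196b, Mir196a-1 and the noncoding genes Gm53 and 5730457N03Rik.

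HoxD lies on chromosome 2 from 74668225 to 74765142, and its 3 tested genes were higher in MOE HIGH. The 8 genes together summed to 22.7, 23.7 and 26.9 FPKM in MOE HIGH, against 8.40, 10.3 and 9.60 FPKM in MOE LOW. On chromosome 2 as a whole 39.8% of tested genes were higher and 20.5% were lower, with a median log2 fold change of 0.22, and of the 10 neighbours of HoxD 6 were higher and 1 was lower. The nearest neighbours Mtx2 (log2 fold change 0.81, adjusted p = 0.000322) and Lnp (log2 fold change 0.56, adjusted p = 0.0143) were among those higher. The part of the chromosome in the HoxD values was not tested.

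Hoxd8 was the third Hox gene by level in MOE HIGH, at 14.5, 15.03 and 18.0 FPKM in MOE HIGH, against 6.45, 7.99 and 6.77 FPKM in MOE LOW. The groups did not overlap and the mean was 2.24 times higher (log2 fold change 1.06, standard error 0.13, adjusted p = 0.000255). Hoxd9, a gene of limb and lumbar identity, was at 4.25, 4.18 and 4.36 FPKM in MOE HIGH, against 0.509, 0.647 and 0.854 FPKM in MOE LOW. Its mean was 6.36 times higher, with an SD of 0.0904 FPKM among the MOE HIGH passages (log2 fold change 1.66, standard error 0.12, adjusted p = 1.35e-05). Hoxd3, a gene of the upper neck vertebrae, was at 3.93, 4.53 and 4.55 FPKM in MOE HIGH, against 1.40, 1.68 and 1.97 FPKM in MOE LOW (log2 fold change 0.995, standard error 0.12, adjusted p = 0.000297).

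The other 5 HoxD genes gave next to no RNA. Hoxd10 was listed at 0 in MOE HIGH and at 0.0369, 0 and 0 FPKM in MOE LOW. Hoxd1, Hoxd11, Hoxd12 and Hoxd13, the last of which acts in the digits and the urogenital tract, were listed at 0 in all 6 libraries. Apart from that trace, the HoxD RNA of both groups lay between Hoxd3 and Hoxd9. Around it, 1700109F18Rik, a noncoding gene that overlaps the Hoxd3 span, was at 0.478, 0.576 and 0.364 FPKM in MOE HIGH, against 0.101, 0.266 and 0 FPKM in MOE LOW, below the minimum for a test.

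Sorted by number instead of cluster, the Hox RNA of MOE HIGH came more from high-numbered genes. Paralog groups 1 to 4 summed to 31.7 ± 1.62 FPKM in MOE HIGH and 74.0 ± 3.86 FPKM in MOE LOW, which was 27.3% and 47.5% of Hox FPKM. This sum lacks Hoxb4 and Hoxd4, which were not analysed. Groups 5 to 8 summed to 71.9 ± 1.49 FPKM in MOE HIGH and 79.3 ± 0.729 FPKM in MOE LOW. Groups 9 to 13 summed to 12.1 ± 2.00 FPKM in MOE HIGH and 2.22 ± 0.558 FPKM in MOE LOW, which was 10.5% and 1.43% of Hox FPKM, and Hoxa10 and Hoxd9 carried most of it in MOE HIGH. In none of these sums did the groups overlap.

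**Figure D4:**
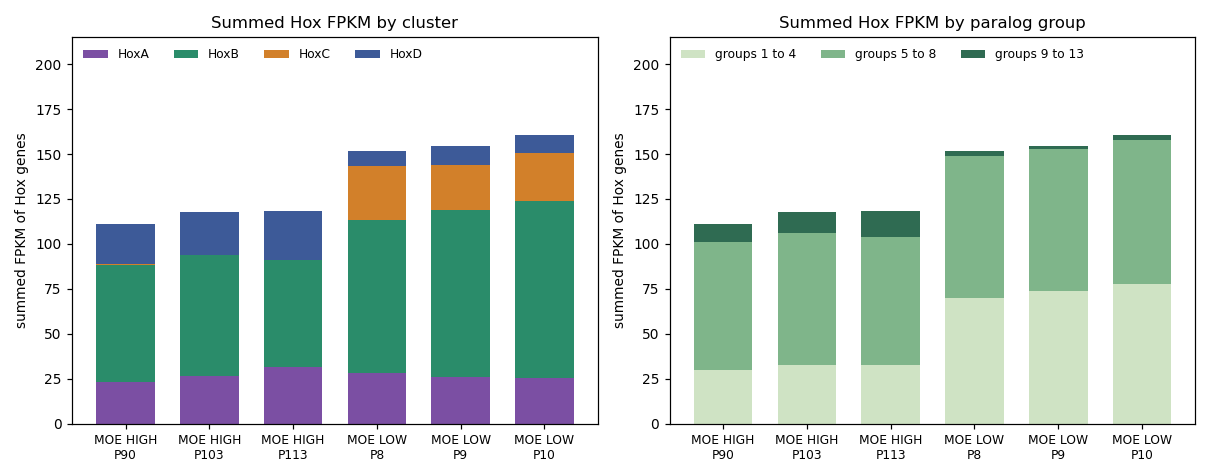
Summed FPKM of the Hox genes in each library, stacked by cluster (left) and by paralog group (right), with the 3 MOE HIGH libraries left of the 3 MOE LOW libraries. The totals are 111 to 118 FPKM in MOE HIGH and 152 to 160 FPKM in MOE LOW, HoxC takes at most 0.0357 FPKM in MOE HIGH and 25.5 to 30.0 FPKM in MOE LOW, and groups 9 to 13 take 9.35% to 12.1% of the total in MOE HIGH and 1.04% to 1.78% in MOE LOW.

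Paralogs of 1 number moved the same way in some groups and differently in others. In group 2 Hoxa2 and Hoxb2 were both lower, and in group 4 Hoxa4 and Hoxc4 were both lower. In group 3 Hoxa3 and Hoxb3 were lower and Hoxd3 was higher. In group 6 Hoxa6 was higher, Hoxb6 was not called and Hoxc6 was lower, and in group 8 Hoxb8 and Hoxc8 were lower and Hoxd8 was higher. In group 5 Hoxb5 was higher, Hoxc5 lower and Hoxa5 not called, and in group 7 Hoxa7 was higher and Hoxb7 not called. Among the tested genes of groups 9 and 10, Hoxd9 and Hoxa10 were higher and Hoxb9 was not called.

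A list of 12 homeobox genes held the TALE partners of Hox proteins (Pbx, Meis and Pknox), Tgif1, Tgif2 and Hmbox1, which is not TALE. Of these 12, 3 were higher and 5, Tgif1 among them, were lower in MOE HIGH. The median log2 fold change was -0.16, and over all genes tested 24.3% were higher and 32.1% lower. Pknox2 passed the minimum only through MOE LOW and had to differ. With libraries scaled to equal totals, or without a minimum, 1 was higher. Pknox2 was at 0, 0.0143 and 0.0240 FPKM in MOE HIGH, against 9.85, 7.18 and 7.42 FPKM in MOE LOW (log2 fold change -3.16, adjusted p = 1.11e-06). Meis1, a partner of the high-numbered Hox proteins, was at 1.15, 1.08 and 1.06 FPKM in MOE HIGH, against 7.86, 8.63 and 9.31 FPKM in MOE LOW (log2 fold change -2.19, adjusted p = 2.27e-06). For both genes the groups did not overlap. Meis2, also lower (log2 fold change -0.71), was the most abundant Meis gene in both groups, at 16.6 FPKM in MOE HIGH and 27.7 FPKM in MOE LOW. Meis3 (log2 fold change 0.995), Pknox1 (0.49) and Pbx3 (0.47) were the genes called higher, and Pbx3 averaged 13.3 FPKM in MOE HIGH and 9.36 FPKM in MOE LOW.

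**Figure D5:**
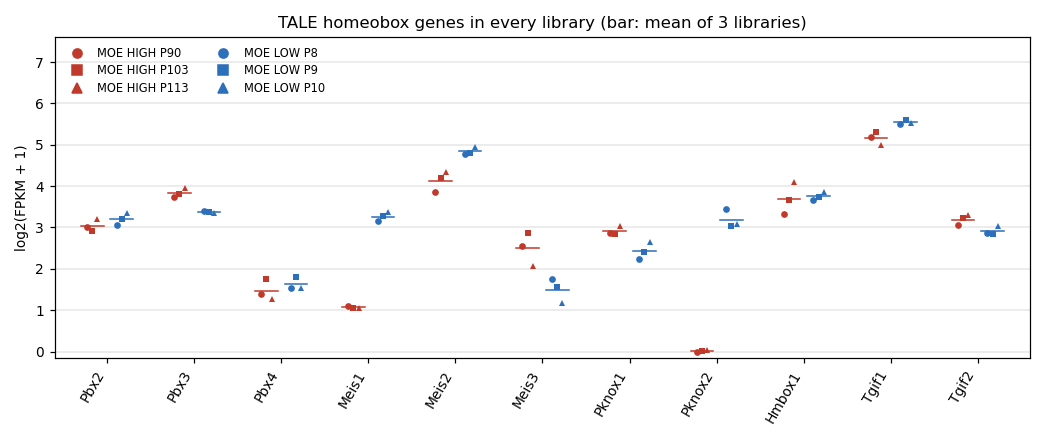
Level of 11 homeobox genes, TALE genes and Hmbox1, as log2(FPKM + 1) in every library, MOE HIGH in red left of MOE LOW in blue with bars at group means. Pknox2 and Meis1 are the lowest in MOE HIGH relative to MOE LOW (log2 fold change -3.16 and -2.19), and Meis3 is the highest (0.995).

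Genes of retinoic acid supply, breakdown and response, a pathway upstream of low-numbered Hox genes in embryos, were mostly lower in MOE HIGH. Of 12 tested 8 were lower and 2 higher, where 32.1% of all genes tested were lower and 24.3% higher. The median log2 fold change was -1.32. The lower genes include Cyp26b1 (log2 fold change -1.87) and Dhrs3, which act to reduce retinoic acid, so the count is no measure of supply. Aldh1a2, Rarb and Cyp26b1 were among those that passed the minimum only through MOE LOW and had to differ. Aldh1a2, which makes retinoic acid, was at 0.0728, 0.0762 and 0.0676 FPKM in MOE HIGH, against 117.5, 74.4 and 115 FPKM in MOE LOW (log2 fold change -6.56, adjusted p = 1.71e-07). Rarb, a receptor gene that is itself a target of retinoic acid, was at 0.0337, 0.0521 and 0.0346 FPKM in MOE HIGH, against 12.5, 10.7 and 9.75 FPKM in MOE LOW (log2 fold change -3.52, adjusted p = 3.77e-07). No MOE HIGH library came near a MOE LOW library for either gene. Dhrs3 (log2 fold change -3.85) averaged 2.94 FPKM in MOE HIGH and 47.4 FPKM in MOE LOW (without passage 103 the MOE HIGH mean was 1.37 FPKM). The receptor partners Rxra (log2 fold change 1.02) and Rxrb (0.40) were higher, and leaving out passage 90, 103, 8, 9 or 10 left 1 of them called, as did a fit without a minimum. Cdx1, Cdx2 and Cdx4, which switch on trunk Hox genes in embryos, were listed at 0 in all 6 libraries.

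Trithorax and Polycomb proteins maintain the states of Hox genes. Of 14 Trithorax and demethylase genes 7 were higher and 1 was lower, with a median log2 fold change of 0.34, against 24.3% higher and 32.1% lower over all genes tested. Wdr5, a core subunit of the MLL complexes, was at 65.3, 64.1 and 63.2 FPKM in MOE HIGH, against 28.2, 30.5 and 27.7 FPKM in MOE LOW (log2 fold change 1.13, adjusted p = 2.83e-05), and Men1 (log2 fold change 0.73), Dpy30 (0.72) and Ash2l (0.72) of the same complexes were also higher. Kdm6b, which removes the Polycomb mark, was the gene called lower (log2 fold change -0.41, adjusted p = 0.0237), and it was not called without passage 90, 9 or 10, with equal totals, with quantile normalization or without a minimum.

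Of 28 tested Polycomb genes 8 were higher and 7 were lower, with a median log2 fold change of 0.08, which is near the 24.3% higher and 32.1% lower over all genes tested. Pcgf5 was at 27.9, 29.1 and 31.7 FPKM in MOE HIGH, against 10.4, 10.4 and 10.1 FPKM in MOE LOW (log2 fold change 1.44, adjusted p = 1.14e-05). Pcgf6 (log2 fold change 1.13), Cbx2 (0.69) and the PRC2 subunit gene Suz12 (0.53) were higher too, and Phf19 (log2 fold change -1.64), Pcgf3 (-0.67, with overlap) and Scmh1 (-0.59) were lower. Phf19 averaged 0.225 FPKM in MOE HIGH, passed the minimum only through MOE LOW and had to differ. Ezh2, the methyltransferase of PRC2, was at 49.5 FPKM in MOE HIGH and 45.3 FPKM in MOE LOW and was not called (log2 fold change 0.13, adjusted p = 0.347). These counts moved with single libraries. Without passage 8, 9 and 10 there were 3, 4 and 5 higher, without passage 103, 8, 9 or 10 there were 4 lower, and without passage 113 there were 10 higher and 10 lower. They also moved with the processing, to 3 higher with equal totals, 5 higher without a minimum, 11 higher and 4 lower with quantile normalization, and 10 higher and 9 lower with the replicate block.

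Of 12 tested genes that pattern the Müllerian duct beside Hox genes, 4 were higher and 7 lower, with a median log2 fold change of -0.64, against 24.3% higher and 32.1% lower over all genes tested. Pax2, Wnt7a, Gata3, Esr1, Pgr and Msx2 passed the minimum only through the group in which they were high. They had to differ, so the counts support nothing further. Pax2, a factor of the duct epithelium, was at 14.4, 20.0 and 17.8 FPKM in MOE HIGH, against 0, 0.0211 and 0.0466 FPKM in MOE LOW (log2 fold change 4.16, adjusted p = 3.34e-07). Wnt4 was at 9.98, 14.0 and 12.4 FPKM in MOE HIGH, against 0.849, 0.796 and 0.576 FPKM in MOE LOW (log2 fold change 2.91, adjusted p = 2.38e-06). Wnt7a, a signal of the duct epithelium that maintains Hoxa10 and Hoxa11 in the mouse uterus, was at 11.9, 2.49 and 4.34 FPKM in MOE HIGH, against 0.0234, 0 and 0.0212 FPKM in MOE LOW (log2 fold change 2.62, adjusted p = 0.00104). Its MOE HIGH mean was 6.25 FPKM with passage 90 and 3.42 FPKM without it. Gata3 was the other gene called higher (log2 fold change 1.35), and the receptor genes Pgr (log2 fold change -3.04) and Esr1 (-2.14) and the homeobox genes Msx2 (-1.76) and Emx2 (-1.51) were lower.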

How the data were processed

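RNA-seq was made from 3 MOE HIGH and 3 MOE LOW passages. Reads were mapped by the authors with TopHat2 2.0.8b on mm10, FPKM came from Cufflinks and Cuffdiff 2.1.1 with the UCSC annotation, and the deposited FPKM values were used as they stand. Each library was identified by its sample label, since several column headings named another passage. Of 23141 entries, 22800 symbols remained (236 had more than 1 entry, and the highest by mean was used). Log2(FPKM + 1) values of genes whose mean reached 0.5 FPKM were compared with limma 3.58.1 (variance trend, R 4.3.3), with Benjamini-Hochberg adjusted p under 0.05. Tables and plots were made with Python 3.11.15, and the scripts were tested on simulated data. The alternatives were other scalings, pseudocounts, minimums, thresholds, a replicate block and each library left out.

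The read depth is unknown, which limits the precision of low values. Comparing low genes between libraries, 1 fragment was worth -0.36 to -0.30 on the log2 scale in MOE HIGH libraries and -0.16 to 0 in MOE LOW libraries, relative to passage 8. Libraries with the same replicate number did not deviate together (r = -0.02, -0.15 and 0.12), so the numbers were not taken to pair them. Gene spans and promoters came from RefSeq GRCm38.p6, the assembly of mm10, and gene strands from GENCODE. Hox genes that averaged 1 FPKM or more in either group were named with every library, and of the other lists up to 4 called genes a direction, largest change first, with a mean of at least 1 FPKM. Tgif1 and Cyp26b1 were named besides, to show what their lists hold. The Hox genes and lists were chosen with earlier results of these data known. Hoxb4 and Hoxd4 were not analysed here. Some members of the gene lists are counted but not reported here by name or drawn.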

Additional observations from a re-analysis of the deposited data

How the results depend on the processing

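Of 402 refits of the 22 tested Hox genes, 381 kept the direction and the side of the threshold. Against a 2-fold change 2 Hox genes were higher and 3 lower, and of all genes 303 were higher and 907 lower. With a mean of at least 5 FPKM, where 8 Hox genes were tested, 1 was higher and 4 lower, and of all genes 2287 were higher and 2350 lower, against 2826 and 3734 with the lower minimum. The fold changes that turned their sign were those of genes not called, Hoxa5 (0.17 with quantile normalization, and -0.28 to 0.038 with 1 library left out, above 0 without passage 90 at 0.038 and without passage 8 at 0.015), Hoxb7 (0.0085 with median ratio scaling) and Hoxb9 (0.20 with quantile normalization). The causes were not tested. Hoxb5 lost its call at an adjusted p of 0.01, Hoxa2 with quantile normalization and Hoxc8 without a minimum. Quantile normalization moved the median log2 fold change of all genes by 0.16 and the share of higher genes among calls to 57.0%, against 43.1%.

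With 1 library left out, 7 to 7 Hox genes were higher and 9 to 10 lower (9 without passage 8, where Hoxc8 fell below the minimum), and 2212 to 3318 of all genes were higher and 3030 to 4378 lower. With the replicate block 7 Hox genes were higher and 10 lower, and of all genes 2967 were higher and 3839 lower. The replicate numbers do not pair the libraries. The unknown depth limits what the listed zeros can show.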
